A study of Mus musculus with 30 samples.

Results

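A list of 9 genes that mark fat cells was followed tumor by tumor in 2 transplanted mouse colorectal carcinoma models, CT-26 and Colon 26, with the same cell lines in culture as background. The genes were Adipoq, Plin1, Cidec, Lep, Cfd, Fabp4, Pparg, Retn and Car3. They were chosen by name as an adipocyte marker list and make up 9 of the 53431 genes in the expression table. CT-26 and Colon 26 are both carcinoma lines derived from BALB/c mice, and the tumors grew from cells placed under the skin on the right side of female mice of that strain. The tumors were collected at a nominal volume of 100, 400 or 800 mm3, with 4 tumors for each model and size, or 24 tumors in all. Each line was also profiled as 3 cultures that had not been implanted, giving 30 libraries in 8 groups. The labels used gave no mouse age and no genetic alteration of the hosts. No label named a drug for any of these libraries, although the treatment text that all of them share describes antibody dosing. All tumors of a model came from 1 cell line, so a difference between the models is a difference between 2 lines.

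White fat cells store triglyceride in a single large droplet and release hormones. Their identity is set by the nuclear receptor PPARγ, the product of Pparg, together with C/EBP transcription factors, which switch on genes for droplet coats, lipid binding proteins and secreted adipokines. Fat lies beneath the skin of the mouse flank, and the mammary glands of female mice are embedded in it. Fabp4 and Pparg are known outside fat as well, in endothelial cells and macrophages, and Car3 in skeletal muscle, whereas Adipoq, Plin1 and Cidec are among the markers most closely tied to adipocytes.

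The libraries held 21384697 to 39722554 estimated counts, and levels are given below in CPM, the counts of a gene scaled to a common library size, with TMM factors over all 30 libraries. A value of 3 counts, which corresponds to 0.0756 to 0.135 CPM depending on the library, was taken as the floor below which a level was not separated from 0, and this floor covers counting error only. In these bulk samples, fewer fat cells and less RNA per fat cell cannot be told apart. Nothing in the labels says that replicates of a group came from separate cultures, so p-values measure the spread between these samples. Tumors are named below by their measured volume.

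Most of the adipocyte genes were present in most tumors, at low levels. For all but Fabp4 and Pparg, each gap between neighbouring group means was smaller than the spread between tumors of a group (SD). Fabp4 differed by 1.41-fold to 4.19-fold between tumors of a group, while its group means ran from 12.6 to 40.4 CPM. Adipoq, Plin1, Cidec and Cfd all exceeded 3 counts in 16 of the 24 tumors, none of the 4 did so in 5 tumors, and some of them did so in the other 3. All 9 genes exceeded the floor in 8 tumors. Gene by gene, Fabp4 and Pparg exceeded 3 counts in 24 of 24 tumors, Car3 in 21, Cfd in 19, Adipoq and Cidec in 17, Plin1 in 16, Retn in 11 and Lep in 8. In the 6 cultures only Fabp4 (6 of 6) and Plin1 (5 of 6) exceeded 3 counts. Detection alone does not bear out the label of an adipocyte list. Lep and Retn were at or below the floor in most tumors. Fabp4 and Pparg exceeded it in every tumor, including 3 tumors with 0 counts of Adipoq, and Plin1 exceeded it in most cultures. Per length of transcript, in the deposited FPKM, the median level over the 24 tumors was 26.8 for Fabp4, 3.18 for Car3, 2.68 for Cfd, 0.607 for Pparg, 0.360 for Adipoq, 0.346 for Cidec, 0.0994 for Retn, 0.0987 for Plin1 and 0.0116 for Lep.

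**Figure D1:**
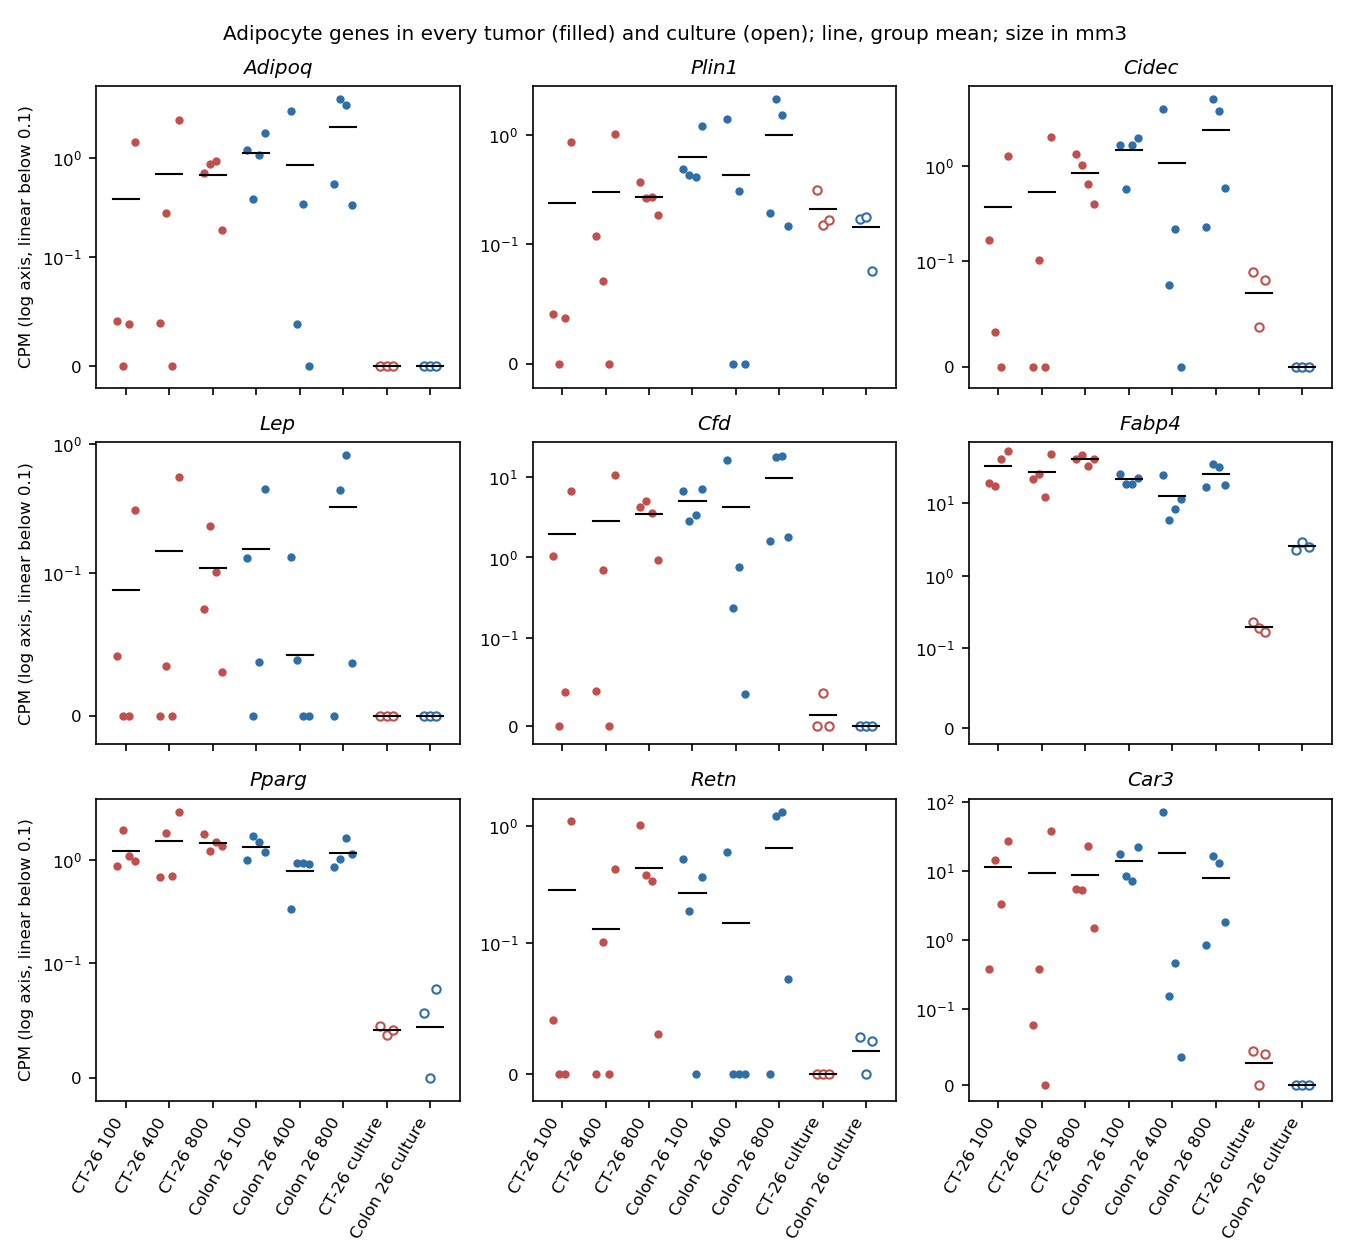
Level of each of the 9 adipocyte genes in CPM on a log axis that is linear below 0.1, with a filled point for each tumor, an open one for each culture, a line at each group mean and the groups of model by size along the horizontal axis. Fabp4 and Pparg form narrower bands in the tumors than the other 7 genes, whereas Adipoq, Plin1, Cidec, Cfd, Retn, Lep and Car3 run from at or near 0 to high values within single groups.

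Adipoq encodes adiponectin, an adipocyte hormone that raises insulin sensitivity, and is found on chromosome 16 (23146536 to 23158028, plus strand, in GENCODE M21 on GRCm38, as are the positions that follow). All 9 genes are protein coding, and none shares exon bases with another gene. In the CT-26 tumors of 100 mm3 its level was 0.0415 CPM at 103.33 mm3, 0 at 106.18 mm3, 0.0384 at 136.03 mm3 and 1.44 at 145.86 mm3. In those of 400 mm3 it was 0.0394 CPM at 405.58 mm3, 0.275 at 400.47 mm3, 0 at 403.89 mm3 and 2.43 at 464.68 mm3. In those of 800 mm3 it was 0.706 CPM at 938.57 mm3, 0.872 at 810.36 mm3, 0.940 at 822.82 mm3 and 0.185 at 853.76 mm3. A single CT-26 tumor thus held nearly all of the Adipoq signal at each of the smaller sizes, while all 4 tumors of 800 mm3 were above the floor. In Colon 26, the level at 100 mm3 was 1.21 CPM at 119.18 mm3, 0.379 at 124.88 mm3, 1.08 at 121.78 mm3 and 1.78 at 102.9 mm3. At 400 mm3 it was 2.99 CPM at 402.1 mm3, 0.0386 at 405.49 mm3, 0.338 at 401.52 mm3 and 0 at 466.73 mm3. At 800 mm3 it was 0.548 CPM at 963.18 mm3, 3.92 at 828.53 mm3, 3.40 at 807.93 mm3 and 0.329 at 858.36 mm3. The values of the 6 tumor groups overlapped, 1 high tumor stood out in the Colon 26 group of 400 mm3, and the Colon 26 group of 800 mm3 split into 2 high and 2 low tumors. Adipoq had 0 counts in all 6 cultures and in 3 tumors, and the highest value, in the Colon 26 tumor of 828.53 mm3, rested on 133 counts. The group means in order of size, with SD and n = 4, were 0.381 ± 0.709, 0.685 ± 1.17 and 0.676 ± 0.342 CPM in CT-26. In Colon 26 they were 1.11 ± 0.575, 0.842 ± 1.44 and 2.05 ± 1.88 CPM.

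Cfd encodes complement factor D, or adipsin, a protease secreted by fat cells that activates the alternative complement pathway (chromosome 10, 79890853 to 79892655, plus strand). Its values, like those of the genes that follow, are listed in the order of tumors given for Adipoq. In CT-26 its level was 1.04, 0, 0.0384 and 6.77 CPM at 100 mm3 and 0.0394, 0.689, 0 and 10.6 CPM at 400 mm3. The tumors of 800 mm3 had 4.24, 5.12, 3.56 and 0.926 CPM. At each of the smaller sizes 1 tumor stood above the rest, and all 4 tumors of 800 mm3 were above the floor. In Colon 26 it was 6.69, 2.84, 3.39 and 7.19 CPM at 100 mm3 and 16.3, 0.232, 0.768 and 0.0364 CPM at 400 mm3. Those of 800 mm3 were at 1.61, 17.9, 18.6 and 1.83 CPM. The high and low tumors were mostly those that were high and low for Adipoq, an exception being the CT-26 tumor of 103.33 mm3 with Cfd at 1.04 CPM and Adipoq under the floor, and all tumor groups overlapped. The mean in Colon 26 was 5.03 ± 2.23, 4.33 ± 7.98 and 9.98 ± 9.54 CPM at 100, 400 and 800 mm3, against 1.96 ± 3.24, 2.84 ± 5.21 and 3.46 ± 1.81 CPM in CT-26 (SD, n = 4 each).

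The remaining hormones were close to the limit of detection. Lep encodes leptin, which signals the size of the fat store to the brain (chromosome 6, 29060220 to 29073877, plus strand). It was highest in the Colon 26 tumors of 807.93 mm3 (0.818 CPM), 102.9 mm3 (0.444 CPM) and 828.53 mm3 (0.443 CPM) and, in CT-26, in the tumors of 464.68 mm3 (0.553 CPM) and 145.86 mm3 (0.309 CPM), and it was 0 in all 6 cultures. Retn encodes resistin, a secreted protein that in mice is made mainly by fat cells (chromosome 8, 3655770 to 3660110, plus strand). Its highest levels were 1.31 CPM in the Colon 26 tumor of 807.93 mm3, 1.21 CPM in that of 828.53 mm3, 1.10 CPM in the CT-26 tumor of 145.86 mm3 and 1.0 CPM in that of 938.57 mm3. These were tumors that also carried Adipoq, and in no group were all 4 tumors above the floor for either gene.

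The lipid droplet genes Plin1 and Cidec followed the same tumors. Plin1 encodes perilipin 1, the coat protein that guards the stored triglyceride against lipases (chromosome 7, 79720218 to 79732903, minus strand). Its level in CT-26 was 0.0415, 0, 0.0384 and 0.860 CPM at 100 mm3 and 0.118, 0.0689, 0 and 1.02 CPM at 400 mm3. At 800 mm3 it was 0.372, 0.262, 0.269 and 0.185 CPM. The tumors of 145.86 and 464.68 mm3 were the highest of their groups. In Colon 26 it was 0.490, 0.433, 0.410 and 1.21 CPM at 100 mm3 and 1.41, 0, 0.307 and 0 CPM at 400 mm3. The tumors of 800 mm3 had 0.193, 2.15, 1.54 and 0.146 CPM. Unlike Adipoq, Plin1 had counts in culture, at 0.315, 0.149 and 0.164 CPM in CT-26 and 0.169, 0.176 and 0.0771 CPM in Colon 26. Its lowest tumor values lay at or below those of the cells alone.

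Cidec encodes a droplet protein that drives the fusion of small droplets into large ones (chromosome 6, 113424634 to 113435760, minus strand). In CT-26 its level was 0.166, 0.0331, 0 and 1.27 CPM at 100 mm3 and 0, 0.103, 0 and 2.0 CPM at 400 mm3. Those of 800 mm3 were at 1.34, 1.02, 0.638 and 0.401 CPM. Here too the tumors of 145.86 and 464.68 mm3 stood above the rest of their groups. In Colon 26 it was 1.67, 0.568, 1.64 and 1.98 CPM at 100 mm3 and 3.94, 0.0773, 0.215 and 0 CPM at 400 mm3. At 800 mm3 it was 0.226, 4.99, 3.76 and 0.585 CPM. Every Colon 26 tumor of 100 mm3 was above the floor for Cidec and 1 CT-26 tumor of that size lay within their range. The Colon 26 cultures had 0 counts and the CT-26 cultures at most 0.0901 CPM.

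**Figure D2:**
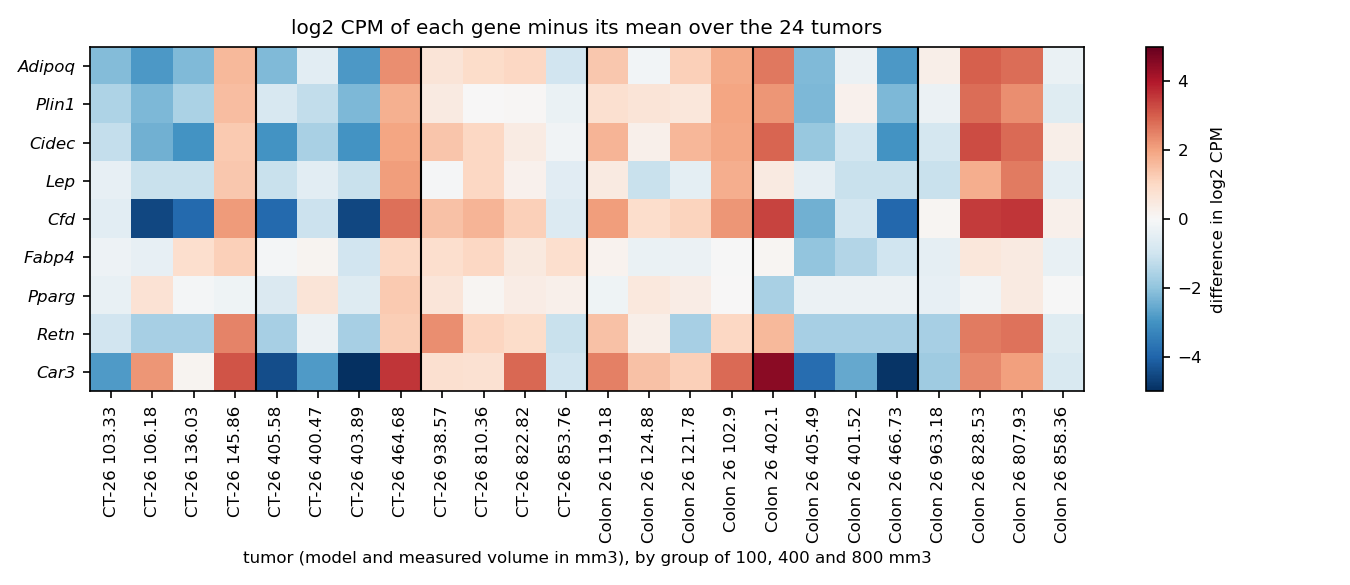
Heat map of the 9 genes (rows) in the 24 tumors (columns, named by measured volume and grouped by model and size), colored by the difference of log2 CPM from the gene's mean over the tumors, with colors saturating at 5 on either side. The columns of the CT-26 tumors of 145.86 and 464.68 mm3 and of the Colon 26 tumors of 402.1, 828.53 and 807.93 mm3 are warm for most of the 9 genes at once, while the rows of Fabp4 and Pparg are paler than those of Cfd and Car3.

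Adipoq, Cfd, Cidec and Plin1 rose and fell together over the tumors. Over the 24 tumors, Pearson's r of log2 CPM with Adipoq was 0.960 for Cfd, 0.956 for Cidec and 0.955 for Plin1, and these were the 3 highest values among 15471 genes with a mean count of at least 10. The next were Mup9 (0.831) and Mup22 (0.828), members of the multigene family of major urinary proteins, whose counts are uncertain because their sequences are nearly identical. The genes most like Cfd were Cidec (0.970), Adipoq (0.960), Plin1 (0.912) and again Mup9 and Mup22 (both 0.822). These correlations describe tumors that share their library for each pair of genes, and they carry no test. The relation was seen in each model separately, since r between Adipoq and Cfd was 0.941 in the 12 CT-26 tumors and 0.979 in the 12 Colon 26 tumors. Lep (0.922 and 0.765) and Retn (0.910 and 0.807) also followed Adipoq in both models, although many of their values were at the floor and Retn, with a mean of 9.58 counts over the tumors, was not ranked.

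The proportions between these 4 genes were also kept within narrow bounds compared with their levels. In the 14 tumors with at least 10 Adipoq counts, the ratio of Cfd counts to Adipoq counts lay between 2.27 and 7.50, a range of 3.30-fold. That of Plin1 lay between 0.286 and 1.14 (4.0-fold) and that of Cidec between 0.412 and 1.90 (4.60-fold). The ratio to Adipoq ranged over 7.07-fold for Fabp4, 17.7-fold for Car3 and 40.3-fold for Pparg. The 14 tumors were chosen by their Adipoq counts, and the ratios are a description.

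The spread between tumors of 1 group was among the widest of any gene for 7 of the 9. The biological coefficient of variation estimated by edgeR from the 24 tumors in their 6 groups was 1.36 for Adipoq, 1.25 for Plin1, 1.40 for Cidec, 1.44 for Lep, 1.49 for Cfd, 1.75 for Retn and 1.56 for Car3. Each was above the value of at least 98.96% of 16487 genes, whose median was 0.131. It was 0.410 for Fabp4 and 0.364 for Pparg, at the 90.92 and 88.2 percentiles. When the 6 group means of each gene were put in order, the gap between neighbours was smaller than the larger of their SDs at all 5 steps for Adipoq, Plin1, Cidec, Lep, Cfd, Retn and Car3. Fabp4 and Pparg each had 1 step that exceeded it, from the Colon 26 tumors of 400 mm3 up to those of 100 mm3 for Fabp4 and up to those of 800 mm3 for Pparg.

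The promoters of the 4 genes that moved together are shown because their transcripts rose and fell together over the tumors. They are RefSeq sequences on GRCm38.p6, from 250 bases before the start to 50 after it, read along the gene: Adipoq at chr16:23146286-23146585 on the plus strand, Cfd at chr10:79890603-79890902 on the plus strand, Plin1 at chr7:79732727-79733026 on the minus strand, and Cidec, with 2 starts, at chr6:113435711-113436010 and chr6:113434715-113435014 on the minus strand. Capitals mark matches on either strand to TTGCNNAA, a core sequence bound by C/EBP factors.
Adipoq: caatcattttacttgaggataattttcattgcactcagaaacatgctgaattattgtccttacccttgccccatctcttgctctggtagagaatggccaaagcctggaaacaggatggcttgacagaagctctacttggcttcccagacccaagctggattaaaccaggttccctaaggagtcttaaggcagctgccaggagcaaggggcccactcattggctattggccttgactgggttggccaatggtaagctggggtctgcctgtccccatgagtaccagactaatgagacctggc
Cfd: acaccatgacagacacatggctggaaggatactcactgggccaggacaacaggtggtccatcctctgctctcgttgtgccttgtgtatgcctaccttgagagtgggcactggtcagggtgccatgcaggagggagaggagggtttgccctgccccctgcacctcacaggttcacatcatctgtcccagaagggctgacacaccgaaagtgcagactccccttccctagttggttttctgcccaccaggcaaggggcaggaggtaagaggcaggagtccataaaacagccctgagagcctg
Plin1: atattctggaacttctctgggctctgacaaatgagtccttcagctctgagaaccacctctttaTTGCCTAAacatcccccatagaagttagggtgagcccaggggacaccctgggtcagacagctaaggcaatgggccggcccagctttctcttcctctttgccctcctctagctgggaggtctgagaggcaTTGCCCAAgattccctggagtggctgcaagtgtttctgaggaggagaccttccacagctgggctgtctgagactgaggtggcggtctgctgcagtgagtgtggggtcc
Cidec, upper start: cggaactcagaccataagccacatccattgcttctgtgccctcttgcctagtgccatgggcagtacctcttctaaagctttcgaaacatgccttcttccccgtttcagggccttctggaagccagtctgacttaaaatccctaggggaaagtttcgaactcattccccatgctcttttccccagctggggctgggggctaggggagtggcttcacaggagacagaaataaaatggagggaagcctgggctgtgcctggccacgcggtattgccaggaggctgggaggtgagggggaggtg
Cidec, lower start: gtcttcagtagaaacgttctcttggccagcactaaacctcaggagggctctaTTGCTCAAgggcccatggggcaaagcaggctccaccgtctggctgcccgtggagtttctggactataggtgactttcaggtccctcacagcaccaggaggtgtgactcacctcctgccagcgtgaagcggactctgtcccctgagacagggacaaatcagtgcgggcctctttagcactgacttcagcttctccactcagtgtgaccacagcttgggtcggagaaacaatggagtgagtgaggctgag
Plin1 held 2 such matches, 187 and 58 bases before its start, and the lower Cidec start held 1, 198 bases before it, whereas Adipoq, Cfd and the upper Cidec start held none in this window. Of the 9 genes, 7 had an entry in the promoter table, with 10 promoters in all, and Fabp4 and Car3 had none. TTGCNNAA was present in 4 of the 10 and in 10.8% of all 32851 mouse promoters of this length. AGGTCA, the half-site of nuclear receptors, was present in 2 of the 10, both of Pparg, and in 16.3% of all promoters, and TATAAA in 1 of the 10 and in 13.6%. A pair of AGGTCA half-sites spaced by 1 base, the form bound by PPARγ with its partner RXR, was in none of the 10 and in 0.0396% of all, or 13 promoters. All motifs were searched on both strands, a match is a description of letters and not a bound site, and the lack of one says only that these letters are not in the window. The Cfd window held 57.7% G and C bases, against a median of 52.7% over all promoters.

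**Figure D3:**
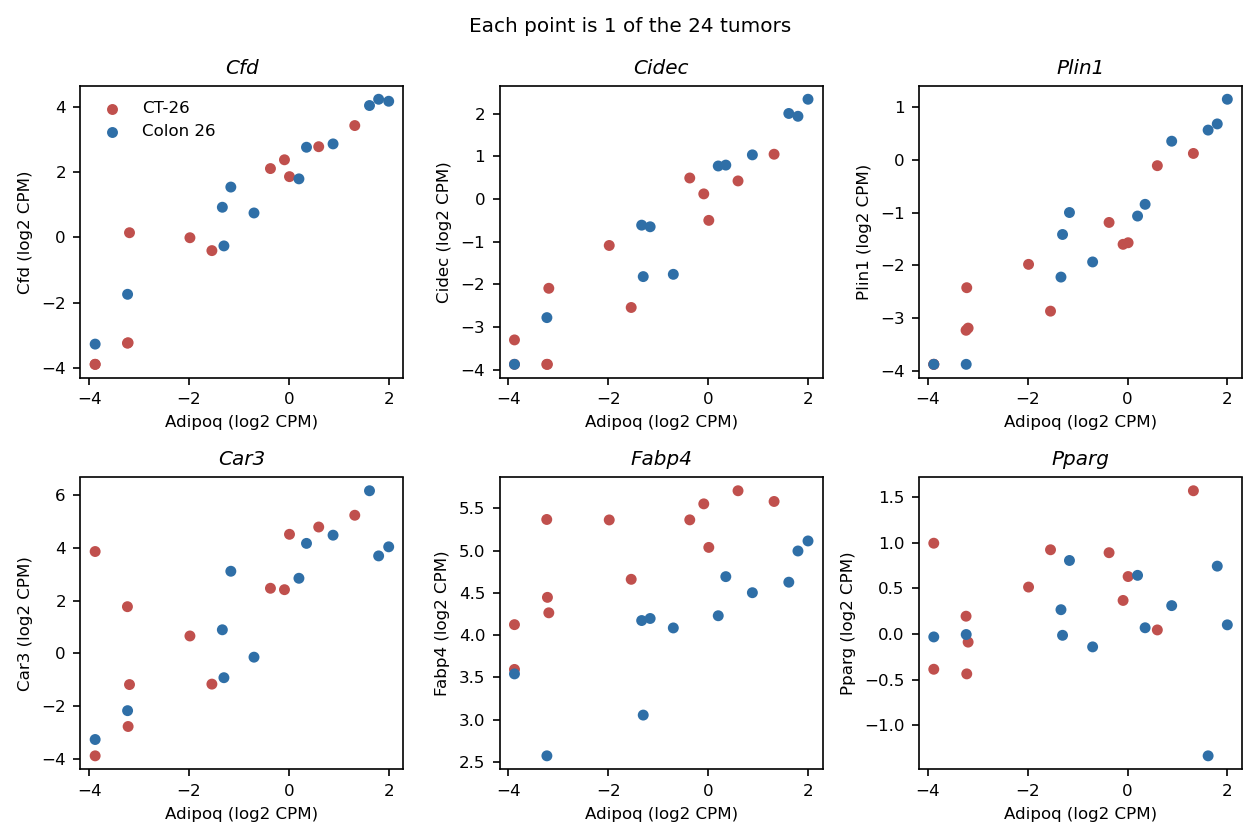
Level of Cfd, Cidec, Plin1, Car3, Fabp4 and Pparg against Adipoq, in log2 CPM with a prior count of 2, with 1 point for each of the 24 tumors and the model shown by color. Cfd, Cidec and Plin1 lie along a line (r 0.960, 0.956 and 0.955), Car3 (0.779) scatters around one, and Fabp4 (0.523) and Pparg (0.131) spread widely.

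Fabp4, a fatty acid carrier that is abundant in fat cells and present in capillary endothelium and macrophages, was the most abundant of the 9 genes and was measured in every tumor (chromosome 3, 10204088 to 10208576, minus strand). In CT-26 its level was 19.1, 17.4, 41.2 and 52.2 CPM at 100 mm3 and 21.7, 25.2, 12 and 47.8 CPM at 400 mm3. The tumors of 800 mm3 had 41.1, 46.9, 32.8 and 41.1 CPM. In Colon 26 it was 25.8, 18.3, 18.7 and 22.6 CPM at 100 mm3 and 24.6, 5.87, 8.23 and 11.6 CPM at 400 mm3. Those of 800 mm3 were at 16.9, 34.6, 31.8 and 18 CPM. At 100 and 400 mm3 in CT-26, and at 400 and 800 mm3 in Colon 26, the tumors highest in Adipoq were also highest in Fabp4. This was not so in CT-26 at 800 mm3, where the tumor of 822.82 mm3 had the highest Adipoq and the lowest Fabp4 of its group. The tumors without Adipoq kept Fabp4. The CT-26 tumor of 106.18 mm3 had 0 counts of Adipoq and 17.4 CPM of Fabp4. Over all 24 tumors r between Fabp4 and Adipoq was 0.523, at rank 452, but it was 0.789 in the 12 CT-26 tumors and 0.854 in the 12 Colon 26 tumors. The genes most like Fabp4 over the 24 tumors were Sh3tc1 (0.832), Gm29562 (0.805), Stap2 (0.790), Mlxipl (0.780) and Angptl7 (0.778). None of these 5 remained among the top 5 when each tumor was taken as its deviation from its group mean, so the ranking was not kept within groups. With 7 endothelial genes, r of Fabp4 ranged from -0.0693 to 0.648, with a median of 0.518. With 7 macrophage genes it ranged from -0.0831 to 0.480 (median 0.268), and with 5 fibroblast genes from -0.369 to 0.337 (median -0.138). Adipoq had r of 0.0752 to 0.617 with the same endothelial genes (median 0.289) and 0.345 to 0.599 with the macrophage genes (median 0.474).

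Pparg, the master regulator of fat cell formation, was low, varied less between tumors than the other 8 genes and did not follow Adipoq over the 24 tumors (chromosome 6, 115360951 to 115490399, plus strand). Its level in CT-26 was 0.872, 1.92, 1.08 and 0.963 CPM at 100 mm3 and 0.670, 1.82, 0.697 and 2.89 CPM at 400 mm3. At 800 mm3 it was 1.78, 1.22, 1.48 and 1.36 CPM. In Colon 26 it was 0.980, 1.68, 1.49 and 1.17 CPM at 100 mm3 and 0.329, 0.927, 0.921 and 0.909 CPM at 400 mm3. The tumors of 800 mm3 had 0.838, 1.0, 1.60 and 1.13 CPM. The lowest Pparg of all tumors, 10 counts, was in the Colon 26 tumor of 402.1 mm3, which had the highest Adipoq, Cfd and Cidec of its group and the highest Car3 of all tumors. Over the 24 tumors, r between Pparg and Adipoq was 0.131, at rank 5660 of 15471 genes, with 0.522 in CT-26 and -0.0567 in Colon 26. The genes most like Pparg were Prkch (0.762), Fam49a (0.761), Calcrl (0.746), Fyb (0.743) and Clec4a1 (0.727), of which Fyb is an adaptor of T cells and myeloid cells and Calcrl a receptor of endothelium. Its r with Ptprc, the pan-leukocyte marker CD45, was 0.647. It was -0.0276 to 0.585 with 7 macrophage genes, with a median of 0.233, and 0.117 to 0.538 with 7 endothelial genes, with a median of 0.178.

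Car3 encodes carbonic anhydrase 3, which is abundant in both fat and slow skeletal muscle (chromosome 3, 14863512 to 14872523, plus strand), and its level followed both. In CT-26 it was 0.374, 14.4, 3.34 and 27.5 CPM at 100 mm3 and 0.0789, 0.379, 0 and 37.5 CPM at 400 mm3. Those of 800 mm3 were at 5.46, 5.26, 22.7 and 1.51 CPM. At 400 mm3 the tumor of 464.68 mm3 was far above the other 3, and at 100 and 800 mm3 the tumors were spread over a wide range. In Colon 26 it was 17.9, 8.58, 7.12 and 22.2 CPM at 100 mm3 and 71.4, 0.155, 0.461 and 0.0364 CPM at 400 mm3. At 800 mm3 it was 0.838, 16.3, 12.9 and 1.79 CPM. All tumor groups overlapped, and the 400 mm3 groups of both models each held 1 tumor far above the other 3. Over the 24 tumors r of Car3 was 0.779 with Adipoq, at rank 9, and 0.720 to 0.803 with 10 skeletal muscle genes. The r of Adipoq with the same 10 muscle genes was 0.345 to 0.458 and that of Cfd 0.312 to 0.433. Among the genes most like Car3 were Fhl1 (0.869), Fabp3 (0.828), Fam213b (0.821) and Slc39a8 (0.821), of which Fhl1 and Fabp3 are known from muscle.

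Muscle and fat genes were not always found together in a tumor. The summed level of the 10 muscle genes was 3144 CPM in the Colon 26 tumor of 402.1 mm3, 1566 CPM in that of 124.88 mm3, 661 CPM in the CT-26 tumor of 145.86 mm3 and 402 CPM in that of 464.68 mm3. The CT-26 tumor of 106.18 mm3 had 328 CPM of muscle genes and 14.4 CPM of Car3 with 0 counts of Adipoq. Conversely, the 4 Colon 26 tumors of 800 mm3 had only 2.45 to 3.16 CPM of muscle genes. These values lay above the 1.80 to 2.12 CPM of the Colon 26 cultures and below the 3.96 to 4.33 CPM of the CT-26 cultures. Among them, those of 828.53 and 807.93 mm3 had 3.92 and 3.40 CPM of Adipoq with 16.3 and 12.9 CPM of Car3. The summed keratinocyte genes, which mark skin, were at 85.8 CPM in the CT-26 tumor of 853.76 mm3 and 3.21 to 6.84 CPM in the other tumors. That tumor had the lowest Adipoq of its group. The mammary list could not serve as a marker of that tissue, because its Csn3 was at 140 CPM in the CT-26 cultures, while Wap, which encodes a milk whey protein, was at 0. The part of muscle, skin or mammary tissue in the levels of the adipocyte genes was not tested.

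**Figure D4:**
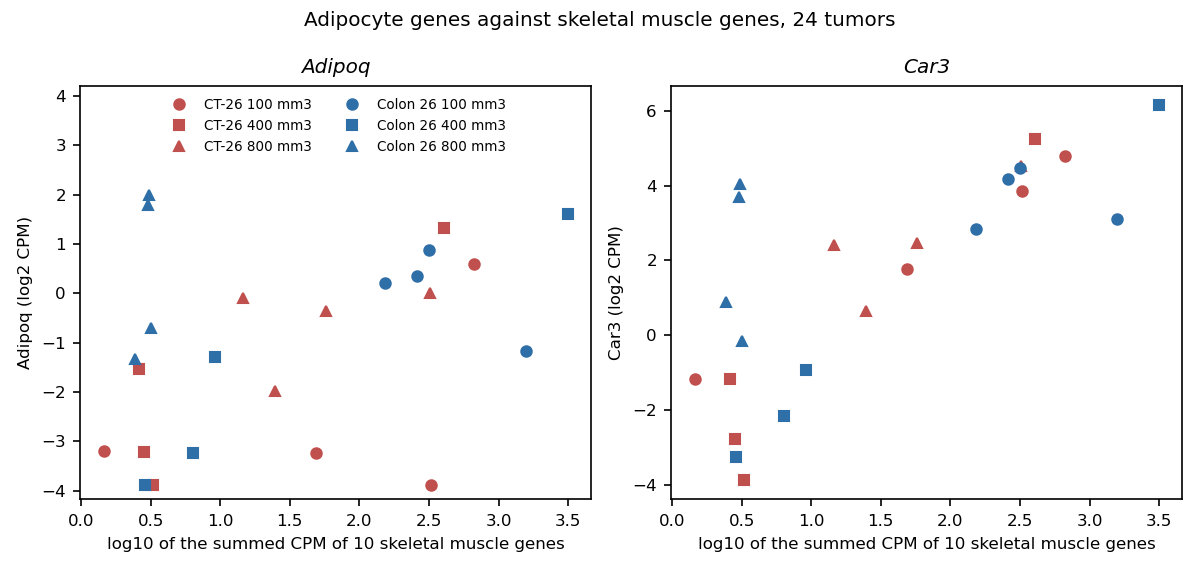
Level of Adipoq and of Car3 in log2 CPM (prior count of 2) against the log10 of the summed CPM of 10 skeletal muscle genes, with 1 point for each of the 24 tumors, colored by model and shaped by size. The CT-26 tumor of 106.18 mm3 has muscle genes and Car3 without Adipoq, and the Colon 26 tumors of 828.53 and 807.93 mm3 have Adipoq and Car3 with muscle genes at 2.45 to 3.16 CPM.

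The cultures were at or below the floor for 7 of the 9 genes, Plin1 and Fabp4 being the others. The tumors were compared with cultures of their own line, 12 tumors against 3 cultures. A gene was called where edgeR's quasi-likelihood test gave an adjusted p of at most 0.1, with Benjamini-Hochberg adjustment over all genes tested, and a log2 change of at least 1 in size. In CT-26, 6 of the 9 genes were higher in tumors and called, namely Fabp4, Pparg, Car3, Cfd, Adipoq and Retn. Of the others, Cidec and Plin1 were tested and not called and Lep was too low to test. Of all 16330 genes tested, 22.7% were called higher in tumors and 32.2% called in either direction. In Colon 26 all 9 genes were called higher, against 21.1% of 16379 genes called higher and 27% called in all. Genes at the floor in every culture entered the test only through their level in tumors. These counts, and the adjusted p given below for such genes, thus describe where the transcripts were found and are not independent support.

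Fabp4 was 163-fold higher in CT-26 tumors than in CT-26 cells (log2 change 7.35 ± 0.69, SE; adjusted p = 2.66e-07, edgeR), whose 3 cultures had 0.225, 0.187 and 0.164 CPM, and the groups did not overlap. Colon 26 cells had Fabp4 of their own, at 2.23, 2.90 and 2.49 CPM, and the tumors were 7.69-fold higher (2.94 ± 0.42, adjusted p = 1.72e-05, edgeR), again without overlap. Pparg was at or below the floor in all 6 cultures, and was at least 11.3-fold higher in CT-26 tumors (adjusted p = 1.28e-05) and at least 13.7-fold higher in Colon 26 tumors (adjusted p = 2.71e-06), without overlap in either line. These bounds for Pparg, and those below, are the mean CPM of the tumors over the mean floor of 3 counts in the cultures. They hold for the mean and not for each tumor. The adjusted p beside them come from edgeR's contrast, which is a different measure.

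Car3 was at least 80.1-fold higher in the CT-26 tumors (adjusted p = 0.0203, edgeR) and at least 168-fold higher in the Colon 26 tumors (adjusted p = 0.0163), and the bound for Cfd was at least 22.3-fold (0.0296) and at least 81.5-fold (0.00672). Both genes had CT-26 tumors within the range of the cultures. In Colon 26 the groups did not overlap for either gene, although the tumor of 466.73 mm3 had only 0.0364 CPM of each, under the floor. Adipoq was at least 4.70-fold higher in CT-26 (adjusted p = 0.0538) and at least 16.9-fold higher in Colon 26 (0.00796), with tumors at 0 in each. Cidec was at least 20.7-fold higher in Colon 26 tumors (0.00961) and called, and at least 4.70-fold higher by its mean in CT-26 tumors (0.123) and not called. Plin1 differed between tumors and cultures by a log2 change of 2.24 ± 1.13 in Colon 26 (4.72-fold, adjusted p = 0.0892) and 0.32 ± 1.08 in CT-26 (adjusted p = 0.802). Retn was at least 2.31-fold (0.0896) and at least 4.49-fold (0.0685) higher, and Lep at least 2.19-fold higher in Colon 26 (0.0683).

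The calls with adjusted p above 0.05 were lost when certain single libraries were left out. The call of Adipoq in CT-26 was lost without the tumor of 145.86 mm3 (adjusted p = 0.107) and without any 1 of the 3 CT-26 cultures (0.104 to 0.114). That of Retn in CT-26 was lost without any 1 culture (0.152 to 0.167) and without any of the tumors of 400.47, 464.68, 938.57, 810.36 and 822.82 mm3 (0.104 to 0.148). In Colon 26 the calls of Lep, Plin1 and Retn were lost without the tumor of 402.1 mm3 (adjusted p = 0.177, 0.147 and 0.982) and without any 1 culture (0.121 to 0.220 over the 3 genes). That of Plin1 was also lost without the tumor of 102.9, 828.53 or 807.93 mm3 (0.12, 0.121 and 0.113). Between 4 and 7 of the 9 genes were called in CT-26 and between 6 and 9 in Colon 26 when 1 library was left out. Those fits called 31.8% to 32.3% of all genes in CT-26 and 26.6% to 27.3% in Colon 26, in either direction.

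The models were compared at matched size, with 4 tumors each, to ask whether fat cell transcripts differed between them. At 100 mm3, Colon 26 had higher mean levels of Adipoq, Plin1, Cidec and Cfd than CT-26, but none of the 7 genes tested was called, against 13.2% of 15406 genes tested. None had an unadjusted p under 0.05 by edgeR or a call by DESeq2. The log2 change of Colon 26 against CT-26 was 1.47 ± 1.06 for Adipoq (adjusted p = 0.28), 1.35 ± 0.97 for Plin1 (0.28), 1.93 ± 0.94 for Cidec (0.12) and 1.34 ± 1.14 for Cfd (0.362). It was -0.61 ± 0.34 for Fabp4 (0.171), 0.14 ± 0.30 for Pparg (0.731) and 0.28 ± 0.89 for Car3 (0.818), and Lep and Retn were too low to test. The outcome changed when single tumors were left out. Without the CT-26 tumor of 145.86 mm3, Adipoq (5.22, adjusted p = 0.00168), Cidec (4.43, 0.00254), Plin1 (4.42, 0.00303) and Cfd (3.86, 0.0143) were all called higher in Colon 26, by edgeR, in a fit that called 14.6% of all genes. Without the Colon 26 tumor of 124.88 mm3, Cidec alone was called (2.23, 0.0994).

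At 400 mm3, 0 of the 4 genes tested were called, against 14.3% of 15241 genes, with 0 at an unadjusted p under 0.05 by edgeR and 0 called by DESeq2. The log2 change was 0.67 ± 1.78 for Cfd (adjusted p = 0.786), 0.98 ± 2.14 for Car3 (0.74), -1.06 ± 0.52 for Fabp4 (0.129) and -0.97 ± 0.53 for Pparg (0.167), and the other 5 genes were too low to test. Fabp4 was called lower in Colon 26 without the Colon 26 tumor of 402.1 mm3 (-1.64, adjusted p = 0.0205), and both Fabp4 (-1.31, 0.069) and Pparg (-1.21, 0.0953) without the CT-26 tumor of 403.89 mm3. Without the CT-26 tumor of 464.68 mm3, Car3 was called higher in Colon 26 (6.82, 0.0893).

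At 800 mm3, Adipoq was the only 1 of the 7 genes tested to be called, against 14.1% of 15521 genes. It was higher in Colon 26 (2.05 ± 1.88 against 0.676 ± 0.342 CPM, SD, n = 4 each), with a log2 change of 1.60 ± 0.75 (SE, adjusted p = 0.0983, edgeR). The groups overlapped, as 2 of the 4 Colon 26 tumors lay below 3 of the CT-26 tumors. The call was lost when any of 6 tumors was left out, namely the 4 CT-26 tumors or the Colon 26 tumors of 828.53 and 807.93 mm3 (adjusted p = 0.124 to 0.276). Without the Colon 26 tumor of 963.18 mm3, 4 of the 9 genes were called, Cfd (1.89, 0.0486) and Cidec (1.88, 0.031) among them. Likewise 4 were called without that of 858.36 mm3, again with Cfd (1.87, 0.0639) and Cidec (1.82, 0.082). In the order given, these fits called 14.9% and 14.8% of all genes. Cidec (1.5 ± 0.79, adjusted p = 0.138) and Cfd (1.53 ± 0.80, 0.134) had changes of similar size that were not called. Retn (0.62 ± 1.01, 0.638), Car3 (-0.13 ± 0.92, 0.92) and Pparg (-0.36 ± 0.24, 0.244) were not called. Fabp4 was lower in Colon 26 (-0.69 ± 0.23, adjusted p = 0.0295), a 0.622-fold level that fell short of the fold required for a call. Plin1 and Lep were too low to test.

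**Figure D5:**
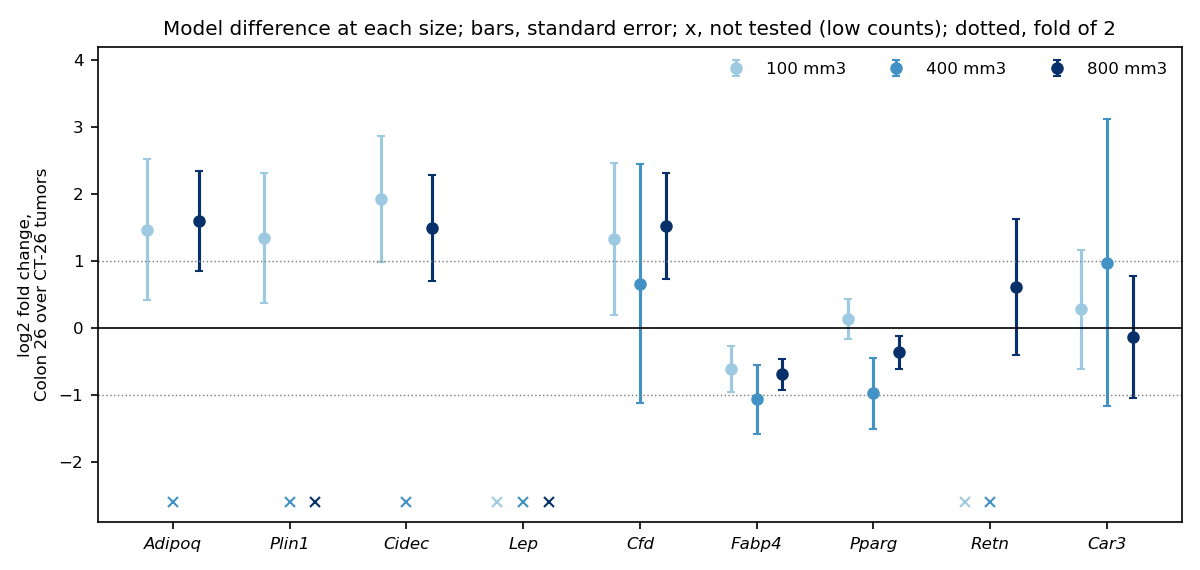
Log2 change of Colon 26 against CT-26 tumors for the 9 genes at 100, 400 and 800 mm3, with SE from edgeR as bars, crosses for genes too low to test and dotted lines at a log2 change of 1 on either side. Adipoq, Plin1, Cidec and Cfd lie above 0 wherever they were tested and Fabp4 lies below 0 at each size, and only Adipoq at 800 mm3 (1.60 ± 0.75) was called.

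Size made no difference that passed the test for any of the 9 genes in either model. In CT-26, 0 of 4 genes tested at 400 against 100 mm3 and 0 of 6 at 800 against 100 mm3 were called, where 0% of 15104 and 0% of 15298 genes were called. In Colon 26, 0 of 7 genes were called at 400 against 100 mm3 and 0 of 8 at 800 against 100 mm3, where 0.0131% of 15241 and 1.33% of 15404 genes were called. At an unadjusted p under 0.05 edgeR found Pparg in Colon 26 at 400 against 100 mm3, and 0 of the 9 genes in each of the other 3 comparisons. DESeq2 called 0 of the 9 in all of them. Pparg was lower at 400 mm3 in Colon 26 (-0.81 ± 0.33, adjusted p = 0.371), with 0.980, 1.68, 1.49 and 1.17 CPM at 100 mm3 all above the highest value of 0.927 CPM at 400 mm3. For 800 against 100 mm3 the log2 change of Adipoq was 0.78 ± 1.06 in CT-26 (adjusted p = 0.809) and 0.91 ± 0.74 in Colon 26 (0.526), and that of Cfd was 0.81 ± 1.16 (0.822) and 0.99 ± 0.76 (0.497). Car3 was at -0.39 ± 1.03 (0.91) and -0.81 ± 0.77 (0.597), while the 10 muscle genes, all tested in this comparison, were all called lower at 800 mm3 in Colon 26.

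The comparison of Colon 26 at 400 against 100 mm3 changed with 1 tumor. With all tumors, the log2 change was -0.36 ± 1.14 for Adipoq (adjusted p = 0.909), -0.19 ± 1.27 for Cfd (0.955), -0.43 ± 1.18 for Cidec (0.892), -0.51 ± 1.05 for Plin1 (0.852), -0.76 ± 0.40 for Fabp4 (0.452) and 0.40 ± 1.56 for Car3 (0.926). Without the tumor of 402.1 mm3, 6 of the 9 genes were called lower at 400 mm3, with Adipoq at -3.00 (adjusted p = 0.044), Cfd at -3.81 (0.0113), Cidec at -3.79 (0.014), Plin1 at -2.46 (0.0966), Fabp4 at -1.35 (0.00989) and Car3 at -5.93 (0.00538). That fit called 391 of 15330 genes, or 2.55%, and 2.32% as lower, so calls rose over the whole table as well. Between CT-26 tumors of 400 and 100 mm3, 1 of the 9 genes was called without the tumor of 464.68 mm3, in a fit that called 2.18% of all genes. The difference between the models in their change with size was called for 0 of 8 genes tested at 400 mm3 and 0 of 8 at 800 mm3, where 0% of 16077 and 0.0308% of 16238 genes were called. There were 0 members at an unadjusted p under 0.05 by edgeR and 0 called by DESeq2.

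Single genes of related fat pathways differed between the models, where 13.2%, 14.3% and 14.1% of all genes tested were called at 100, 400 and 800 mm3. The lists were not tested as sets, and genes are named below because they were called. The calls thus describe single genes and not the pathways. Of the lipid droplet and lipolysis genes, Plin4, a droplet coat protein, was higher in Colon 26 at each size by a log2 change of 2.07 ± 0.25, 1.24 ± 0.19 and 1.5 ± 0.18 at 100, 400 and 800 mm3. The list had 1 higher and 0 lower of 9 tested at 100 mm3, 1 and 1 of 9 at 400 mm3 and 1 and 0 of 9 at 800 mm3. Of the lipid uptake and synthesis genes, Dgat2, which makes triglyceride, was lower in Colon 26 at each size (-1.25 ± 0.30, -1.37 ± 0.35 and -1.53 ± 0.30), and Scd1, a fatty acid desaturase, was lower at 400 mm3 (-1.26 ± 0.16). There were 0 higher and 1 lower of 17, 0 and 2 of 17, and 0 and 1 of 18 tested at the 3 sizes. Of the regulators and receptors, 0 rose and 1 fell of 13 at 100 mm3, 0 and 1 of 13 at 400 mm3, and 1 and 0 of 12 at 800 mm3. Klf15, a regulator of fat cell formation, was the 1 lower gene at the smaller sizes (-2.20 ± 0.77 and -1.88 ± 0.62). The other adipokines had 0 and 0 of 6, 1 and 0 of 6, and 2 and 1 of 7, among them Rbp4, the carrier of retinol, higher in Colon 26 at 400 mm3 (1.41 ± 0.51) and 800 mm3 (2.10 ± 0.57). In the cultures, Dgat2 was already lower in Colon 26, at a mean of 0.184 CPM against 20.4 CPM in CT-26. Plin4 differed there in the direction opposite to the tumors, at 3.77 CPM in Colon 26 against 14.6 CPM in CT-26.

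In the brown and beige adipocyte list, whose defining Ucp1 and Cidea were at means of 0.00387 and 0.0100 CPM over the tumors and so under the floor, other members moved in both directions. Dio2, which activates thyroid hormone, was lower in Colon 26 at each size, at 1.41 against 65.0 CPM, 1.43 against 47.8 CPM and 1.04 against 36.4 CPM. Its log2 change was -5.50 ± 0.44, -5.10 ± 0.57 and -5.15 ± 0.18. In the cultures Dio2 differed in the opposite direction, at a mean of 1.43 CPM in Colon 26 against 0.0275 CPM, under the floor, in CT-26. Prdm16, a transcriptional regulator, was higher in Colon 26 (3.92 ± 0.30, 4.12 ± 0.58 and 2.65 ± 0.31) and Ppargc1a, a coactivator of mitochondrial genes, lower (-2.94 ± 0.31, -2.85 ± 0.44 and -2.20 ± 0.42). Of the genes tested, 1 was higher and 2 lower of 6 at 100 mm3, 1 and 2 of 5 at 400 mm3, and 1 and 3 of 5 at 800 mm3. The shares called over all genes, in either direction, were 13.2%, 14.3% and 14.1%. Of the progenitor genes, 2 were higher and 1 lower of 7 at 100 mm3, 1 and 2 of 7 at 400 mm3, and 2 and 1 of 7 at 800 mm3. Pdgfra, the receptor that marks fat cell precursors and fibroblasts, was higher in Colon 26 at each size (1.33 ± 0.12, 1.18 ± 0.12 and 1.37 ± 0.09). Pdgfra, Prdm16 and Ppargc1a were also measured in the cell lines. Prdm16 and Ppargc1a were at 8.69 and 0.317 CPM in Colon 26 cultures and at 0 and 5.95 CPM in CT-26 cultures. Pdgfra was at 36.3 CPM in Colon 26 cultures and 20.9 CPM in CT-26 cultures, the same direction as in the tumors. Between sizes, edgeR called none of the tested genes of these 6 lists in either model. Few genes of any kind were called there. The share over all genes was 0% in both CT-26 comparisons. In Colon 26 it was 0.0131% at 400 and 1.33% at 800 against 100 mm3.

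Against culture, the called genes of the adipokine and progenitor lists all rose, while each of the other lists held genes that rose and genes that fell. Cd36, a fatty acid transporter, went from means of 0.0261 and 0.00857 CPM in the CT-26 and Colon 26 cultures, under the floor, to 38.3 and 34.2 CPM in the tumors. Cebpa, the C/EBP factor of fat and myeloid cells, rose by 4.65 ± 0.32 and 2.88 ± 0.17 on the log2 scale, and Angptl4, an inhibitor of lipoprotein lipase, by 4.52 ± 0.30 and 1.98 ± 0.15. Plin2, the droplet coat of most cell types, was lower in tumors than in culture (-1.55 ± 0.19 and -1.19 ± 0.11), as was Gpam, which starts glycerolipid synthesis (-1.65 ± 0.08 and -1.07 ± 0.07). Plin4 was lower in tumors of CT-26 (-1.37 ± 0.21) and higher in those of Colon 26 (2.28 ± 0.13). In CT-26 the counts higher and lower were 3 and 4 of 10 lipid droplet genes, 4 and 3 of 19 uptake and synthesis genes, 3 and 2 of 13 regulators, 5 and 0 of 7 adipokines, 3 and 1 of 5 brown and beige genes and 5 and 0 of 7 progenitor genes. In Colon 26 they were 4 and 1 of 10, 7 and 3 of 18, 3 and 2 of 14, 5 and 0 of 7, 1 and 2 of 7, and 6 and 0 of 7. Of all genes tested, 22.7% were called higher and 32.2% in either direction in CT-26, against 21.1% and 27% in Colon 26.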

How the data were processed

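RNA from 24 subcutaneous tumors and 6 cell cultures was converted to libraries with a poly-A TruSeq mRNA kit and sequenced. The authors counted reads per gene with Array Studio on an Ensembl annotation and deposited them as estimated counts, of which 22.6% of the non-zero values were not whole. The FPKM values deposited beside them divide by gene length and library total, and were used only for levels between genes and for an alternative test. The aligner, genome build and handling of strand are not given in the sources used here. The study's own comparison used DESeq2 1.24.0.

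Of 53431 gene identifiers, 97.7% had a symbol and 1224 had none. Estimated counts were rounded to whole numbers, filtered with filterByExpr, scaled by TMM and tested with edgeR 4.0.16 (quasi-likelihood test, R 4.3.3), with Benjamini-Hochberg adjustment over all genes tested. The test had been planned for whole counts and was kept. The thresholds were those of the study, an adjusted p of at most 0.1 and a log2 change of at least 1 in size. Each comparison was fitted on its own groups, and the model differences in size effect on the 4 groups concerned. Log2 CPM for correlations used a prior count of 2, over genes with a mean of at least 10 counts in the tumors. Group was taken from the labels, and replicates were named by measured tumor volume. Library totals were 21384697 to 39722554, and 3 counts were 0.0756 to 0.135 CPM.

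Alternatives were DESeq2 1.42.0, RLE or library size scaling, no filter or at least 10 counts in every library, limma 3.58.1 on log2(FPKM + 1) or log2(FPKM + 0.1), other thresholds, 1 fit over all 30 libraries and each library left out in turn. Likeness was recomputed with Spearman's rho, without the highest tumor, on log2(FPKM + 1) and, added after the data were seen, on deviations from the group mean. The genes named were the 9 members, the called genes of the related lists (at most the 4 with the smallest p per list and comparison) and the 5 genes most like each of Adipoq, Cfd, Fabp4, Pparg and Car3 (Retn, planned too, was under the count minimum), and other genes named were chosen after their values were seen. One item of these lists is not reported here. The members and lists were chosen with earlier results of these data known. Steps across all genes were tested on simulated data with known changes. Promoters were RefSeq sequences on GRCm38.p6, and gene positions came from GENCODE M21.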

Additional observations from a re-analysis of the deposited data

Results flagged for a closer look

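In each of the 6 tumor groups, the highest and lowest of the 4 tumors were screened for each of the 9 genes by the gap to the nearest other tumor as a share of the group's whole range in CPM. Of these 54 groups, 19 held a tumor whose gap exceeded the 95% critical value of the Dixon test for 4 values. That value flags about 1 in 20 groups where values are normally distributed. These CPM were not log transformed and are skewed toward high values, some groups holding zeros, so the rate due to chance is not known here. The genes of a tumor also share its library, so the groups are not independent. In 18 of the 19 the tumor was the highest of its group, the side on which skewed values leave gaps, so the screen is a description only.

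The CT-26 tumor of 145.86 mm3 stood above its group for Adipoq (gap 0.971 of the range), Retn (0.962), Plin1 (0.952), Cidec (0.869), Lep (0.866) and Cfd (0.847). The CT-26 tumor of 464.68 mm3 stood above its group for Car3 (0.990), Cidec (0.948), Lep (0.938), Cfd (0.935), Adipoq (0.886) and Plin1 (0.884). The Colon 26 tumor of 402.1 mm3 stood above its group for Retn (1), Car3 (0.994), Cfd (0.955), Cidec (0.945) and Adipoq (0.887), and below it for Pparg (0.970). The Colon 26 tumor of 102.9 mm3 stood above its group for Plin1 (0.901). No group of 800 mm3 held such a tumor in either model. The summed muscle genes in these tumors were given with Car3, and their part in the gaps was not tested.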

How the results depend on the processing

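The number of the 9 genes called between the models at 100 mm3 was 0, and became 1 by limma on log2(FPKM + 1) and 4 on log2(FPKM + 0.1). At 400 mm3 it went from 0 to 1 in 1 fit over all 30 libraries. At 800 mm3 the 1 call became 2 by DESeq2, 2 with no filter and 2 with no minimum fold change, and 0 with at least 10 counts in every library, by limma with either pseudocount, at an adjusted p of at most 0.05 and in 1 fit over all libraries. Against culture, requiring 10 counts in every library left 0 of 6 calls in CT-26 and 1 of 9 in Colon 26, by construction, and limma on log2(FPKM + 1) left 3 in each. Values that changed sign under limma were Car3 in CT-26 at 800 against 100 mm3 (0.13 with 0.1 added), Plin1 in CT-26 against culture (-0.0024 with 1 added and -0.15 with 0.1 added) and Car3 in Colon 26 at 400 against 100 mm3 (-1.62 and -3.29). The cause was not tested. With 1 library left out, the number called ranged from 0 to 4 at 100 mm3, 0 to 2 at 400 mm3 and 0 to 4 at 800 mm3 between the models, 0 to 1 in CT-26 and 0 to 6 in Colon 26 at 400 against 100 mm3. Between the models, those fits called 13% to 14.6% of all genes at 100 mm3, 13.9% to 15.9% at 400 mm3 and 14.3% to 15.7% at 800 mm3. At 400 against 100 mm3 they called 0% to 2.18% in CT-26 and 0% to 2.55% in Colon 26. The log2 change of Car3 ranged from -0.096 to 1.19 at 100 mm3 and -0.74 to 0.96 at 800 mm3 between the models, from -1.48 to 0.51 in CT-26 at 800 against 100 mm3 and from -5.93 to 0.80 in Colon 26 at 400 against 100 mm3. That of Cfd ranged from -2.97 to 4.12 between the models at 400 mm3 and from -3.81 to 0.21 in Colon 26 at 400 against 100 mm3, where that of Adipoq ranged from -3.00 to 0.039. Of 521 values of single genes under other settings, 486 kept direction and call, 22 lost the call, 8 gained it and 5 changed sign, and of 558 with a library left out these numbers were 489, 33, 21 and 15. No paired analysis was possible because the labels carry no replicate numbers that pair tumors or cultures of different groups. DESeq2 called more genes in all, for example 162 against 0 by edgeR between CT-26 tumors of 400 and 100 mm3, and 39 against 0 between those of 800 and 100 mm3. Between the models at 800 mm3 it called 2860 genes against 2192 by edgeR. Levels of Lep and Retn, and of all but Fabp4 and Pparg in the lowest tumors, were at the limit set by depth.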

Other observations

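Under other measures of likeness, the 5 genes most like Adipoq kept 5 members by Spearman's rho, 5 without the tumor in which Adipoq was highest, 3 on log2(FPKM + 1) and 4 as deviations from group means. Those of Pparg kept 2, 4, 2 and 0, and those of Fabp4 kept 1, 4, 2 and 0. As deviations from group means, r between Fabp4 and Adipoq was 0.802, at rank 17, against 0.523 and rank 452 for the values themselves.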
